A study of Sus scrofa with 12 samples.

Results

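Aminoacyl-tRNA synthetases, the enzymes that load each amino acid onto its matching tRNA, were followed through culture of interstitial cells from the pig (Sus scrofa) aortic valve, which make and repair the matrix of the leaflet. Members were taken by name from the gene table. They were the rows whose symbol is a letter followed by ARS, with or without a final 1 or 2, or is EPRS, FARSA, FARSB, AIMP1, AIMP2 or EEF1E1. Of the 22861 rows, 20 taken in this way are described. The 13 cytosolic rows were CARS, DARS, EPRS, FARSA, GARS, HARS, KARS, NARS, SARS, WARS and YARS, with the cofactors AIMP1 and AIMP2. The 7 whose symbol ends in 2 as a mark of the mitochondrial enzyme were AARS2, EARS2, HARS2, NARS2, PARS2, TARS2 and VARS2. The table lists 14 more rows of synthetase or cofactor genes under an identifier with no such symbol, EEF1E1 among them. RARS2 stands there in 2 rows. These 14 rows are described apart. All 20 rows passed the filter on low values, an RPKM of at least 1 in at least 3 libraries.

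The series holds 12 libraries in 4 groups of 3 biological replicates. All cells were cultured in DMEM on glass, which the labels give as the stimulus for calcification. Stage 1 was taken at day 5 and Stage 2 at day 8, both without an agent. At Stage 3 the cells received either the solvent DMSO or KPT. Stage 3 with DMSO thus differs from Stages 1 and 2 in both stage and solvent, and these cannot be told apart. The sources used here do not give the sampling day of the Stage 3 libraries or the dose of KPT and its duration. KPT appears in the labels under that code name alone, which is known for inhibitors of the nuclear export receptor XPO1. Nothing ties a replicate to an animal, and the p-values therefore speak only to the variation among these cultures, which may be technical. The model is a single cell type kept on a rigid surface outside the valve.

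Each synthetase activates its amino acid with ATP and passes it to the tRNA. The cytosolic and the mitochondrial set are in most cases encoded by different nuclear genes, while GARS and KARS each serve both compartments. In animal cells several cytosolic synthetases sit in a multisynthetase complex held together by AIMP1, AIMP2 and EEF1E1. Many cytosolic synthetase genes are also known targets of ATF4, the transcription factor that is translated when amino acids are short or the endoplasmic reticulum is stressed. Of the rows taken by name, CARS, EPRS, GARS, NARS, SARS, WARS and YARS are usually counted among these targets. DARS, FARSA, HARS and KARS are not. AARS1, IARS1, LARS1, MARS1 and TARS1, found by identifier, are also counted among these targets.

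Library totals recovered from the values were 13188023 to 24724019. The sources used here do not give their unit, and reads summed over genes came to 1.75 to 1.81 times the total. The members had from 106 reads in a library (NARS2) to 31845 (GARS). The libraries carried the interstitial markers VIM at 4378 to 11573 RPKM and COL1A2 at 3826 to 9963 RPKM. RPKM is a read count scaled to exon length and to the library total. Endothelial PECAM1 was at 4.92 to 12.0 RPKM and VWF at no more than 0.0434, while 7 endothelial markers together summed to 32.5 to 83.7. Leukocyte PTPRC stayed at or below 0.0184 RPKM and LYZ at or below 0.111. CD68 was at 1.10 to 5.58 RPKM, and CD79A was read at 222 to 293. Cardiomyocyte TNNT2 was at 0 in every library. XPO1 stood at 97.3 to 137 RPKM in the KPT libraries and at 19.6 to 34.5 in the other 9. In bulk RNA, fewer cells of a type and less RNA per cell cannot be told apart.

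RPKM is scaled to gene length, so levels can be set side by side, except where a gene model overlaps another gene, as for AIMP1, AIMP2, HARS, HARS2 and KARS. In Stage 1 the order ran from GARS at 408 ± 18.0 RPKM (SD, n = 3) and KARS at 374 ± 9.85 through NARS, WARS, SARS, EPRS, YARS, DARS, HARS, CARS and AIMP1 to FARSA at 20.4 ± 0.412. AIMP2 at 14.2 ± 0.862 lay among the mitochondrial genes, which ran from HARS2 at 16.3 ± 0.604 down to AARS2 at 2.59 ± 0.0943. Over exons 1 to 3 alone, clear of the overlap, AIMP2 stood at 38.4 ± 3.84 RPKM, above FARSA. YARS and DARS overlapped in Stage 1, as did HARS and CARS, and AIMP2 overlapped TARS2. The order changed in Stage 3. With DMSO, WARS moved up to 570 ± 52.3 RPKM and overlapped GARS at 640 ± 39.1. With KPT, NARS was highest at 235 ± 9.56 and WARS stood at 80.3 ± 4.42, overlapping YARS. The ratio of the highest to the lowest group mean was 7.10 for WARS, 3.43 for GARS, 3.37 for CARS and 3.28 for SARS, and from 1.21 to 2.71 for the other cytosolic rows. Among mitochondrial rows this ratio ran from 1.22 (HARS2) to 1.96 (NARS2).

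**Figure D1:**
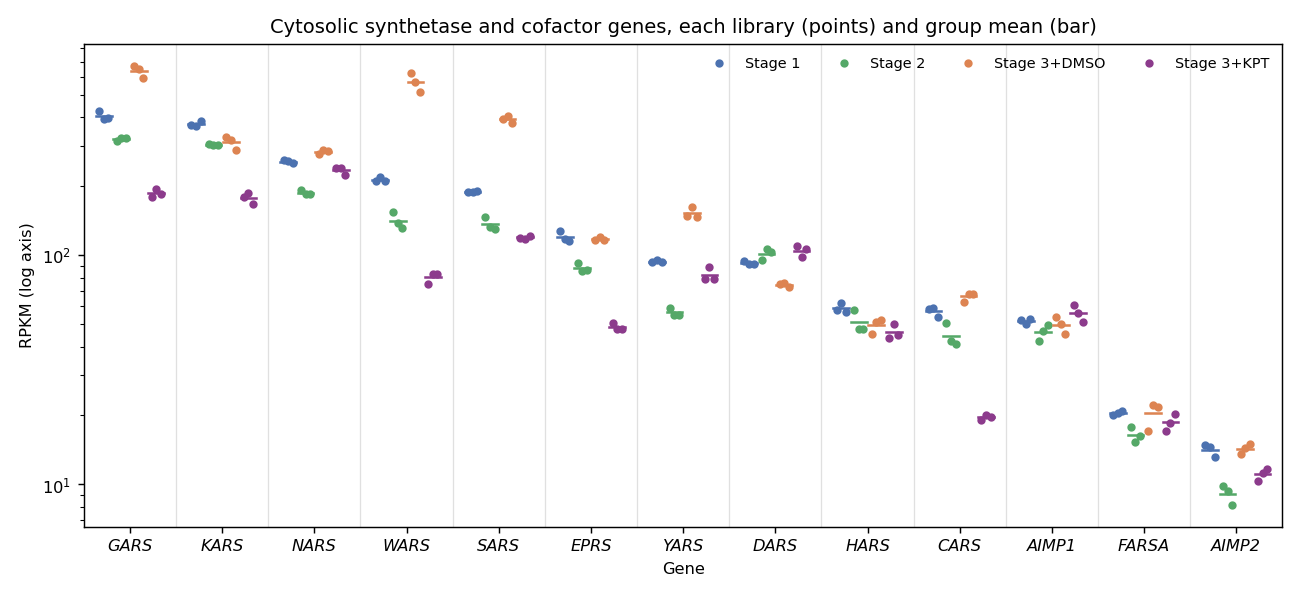
RPKM (log axis) of the 13 cytosolic rows in each library, with 3 points and a bar at the mean for each of the 4 groups, genes ordered by their Stage 1 mean. WARS, SARS, GARS and YARS are highest in Stage 3+DMSO, while DARS is lowest there.

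From Stage 1 to Stage 2, cytosolic synthetase genes were lower. In the limma fit, which tests log2(RPKM + 1) over all 12 libraries, 10 of the 13 cytosolic rows fell (adjusted p under 0.05) and 0 rose, where 24.4% of the 13046 genes tested fell and 16.3% rose. At an unadjusted p under 0.05, 1 cytosolic row was higher (DARS), and limma-voom on recovered reads called 0. The median log2 fold change over the 13 was -0.35, against -0.05 over all genes. The falls were between 0.30 (FARSA and KARS) and 0.73 (YARS) on the log2 scale. Of the 7 mitochondrial rows, 1 rose (NARS2) and 0 fell, with 0 lower at an unadjusted p under 0.05 and 0 by limma-voom, and their median was 0.12. FARSA was no longer called when any of 5 libraries was left out (Stage 1 replicates 1, 2 or 3, Stage 2 replicates 2 or 3), with values from -0.31 to -0.25.

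From Stage 2 to Stage 3 with DMSO the direction was the opposite. Here 9 of 13 cytosolic rows rose and 1 fell (DARS), where 33.0% of all genes rose and 11.1% fell, and the median was 0.57 against 0.15 over all genes. Of the 7 mitochondrial rows, 3 rose (AARS2, EARS2 and TARS2) and 0 fell, with 0 lower at an unadjusted p under 0.05 or by limma-voom, and their median of 0.20 lay near that of all genes. On this scale 74.9% of all calls were rises. After rescaling by the median ratio it was 50.7%, with the median of all genes at 0.01, and then 8 cytosolic rows rose, 1 fell and 1 mitochondrial row rose (TARS2). The cytosolic median was 0.40 after that rescaling and the mitochondrial median 0.045, and the latter was -0.018 after quantile normalization. Leaving out any 1 library left 1 to 3 mitochondrial calls. The count was 1 without Stage 1 replicates 2 or 3, Stage 2 replicates 1, 2 or 3, Stage 3+DMSO replicate 1 or Stage 3+KPT replicate 3. The fall of DARS and the rises of WARS, SARS, YARS and GARS were called in all 24 alternative settings.

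Over the whole course, Stage 3 with DMSO against Stage 1, the cytosolic rows split. WARS, SARS, YARS, GARS, CARS and NARS rose and DARS, KARS and HARS fell, that is 6 and 3 of 13, where 30.5% of all genes rose and 17.3% fell. Their median was 0.02, against 0.10 over all genes. Of the mitochondrial rows 4 rose (EARS2, NARS2, TARS2 and VARS2) and 0 fell (0 also at an unadjusted p under 0.05 and by limma-voom), with a median of 0.33. Of all calls 63.8% were rises, and 48.0% after rescaling by the median ratio, when 4 cytosolic rows rose and 3 fell. The comparison shares its libraries with the other 2 stage comparisons. Without Stage 3+DMSO replicate 1 only 2 mitochondrial rows were called, with NARS2 at 0.40 and VARS2 at 0.26 no longer among them.

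KPT at Stage 3 went with much lower levels of most cytosolic rows. Against DMSO, 9 of 13 fell and 1 rose (DARS), where 29.5% of all genes fell and 30.5% rose, and the median was -0.80 against 0.02 over all genes. The fall was 1 or more on the log2 scale for WARS, GARS, SARS, CARS and EPRS, a size reached downwards by 8.24% of all genes. Of the mitochondrial rows 1 rose (TARS2) and 1 fell (VARS2), with a median of 0.17. The count of rises was 2 without Stage 2 replicates 1 or 2, Stage 3+DMSO replicate 3 or Stage 3+KPT replicate 3, and 3 without Stage 3+DMSO replicate 1. Some cell type marker lists moved in the same comparison, that of the interstitial cells included. The summed level of 7 endothelial markers was 67.1 to 83.7 RPKM with DMSO and 32.5 to 37.1 with KPT, and all 3 that passed the filter fell. That of 2 smooth muscle markers, both lower, was 477 to 527 and 83.1 to 106, and that of 11 interstitial markers, of which 6 fell and 3 rose, was 36533 to 38167 and 23731 to 24645. The 8 leukocyte markers summed to 237 to 279 RPKM with DMSO and 268 to 308 with KPT, and the 6 cardiomyocyte markers to 1.28 to 1.94 and 1.13 to 1.62. CD79A, at 222 to 293 RPKM over all libraries, made up most of the leukocyte sum. Neither the 3 leukocyte markers tested nor the 1 cardiomyocyte marker tested were called. The part of the marker shifts in the fall of the synthetase genes was not tested.

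**Figure D2:**
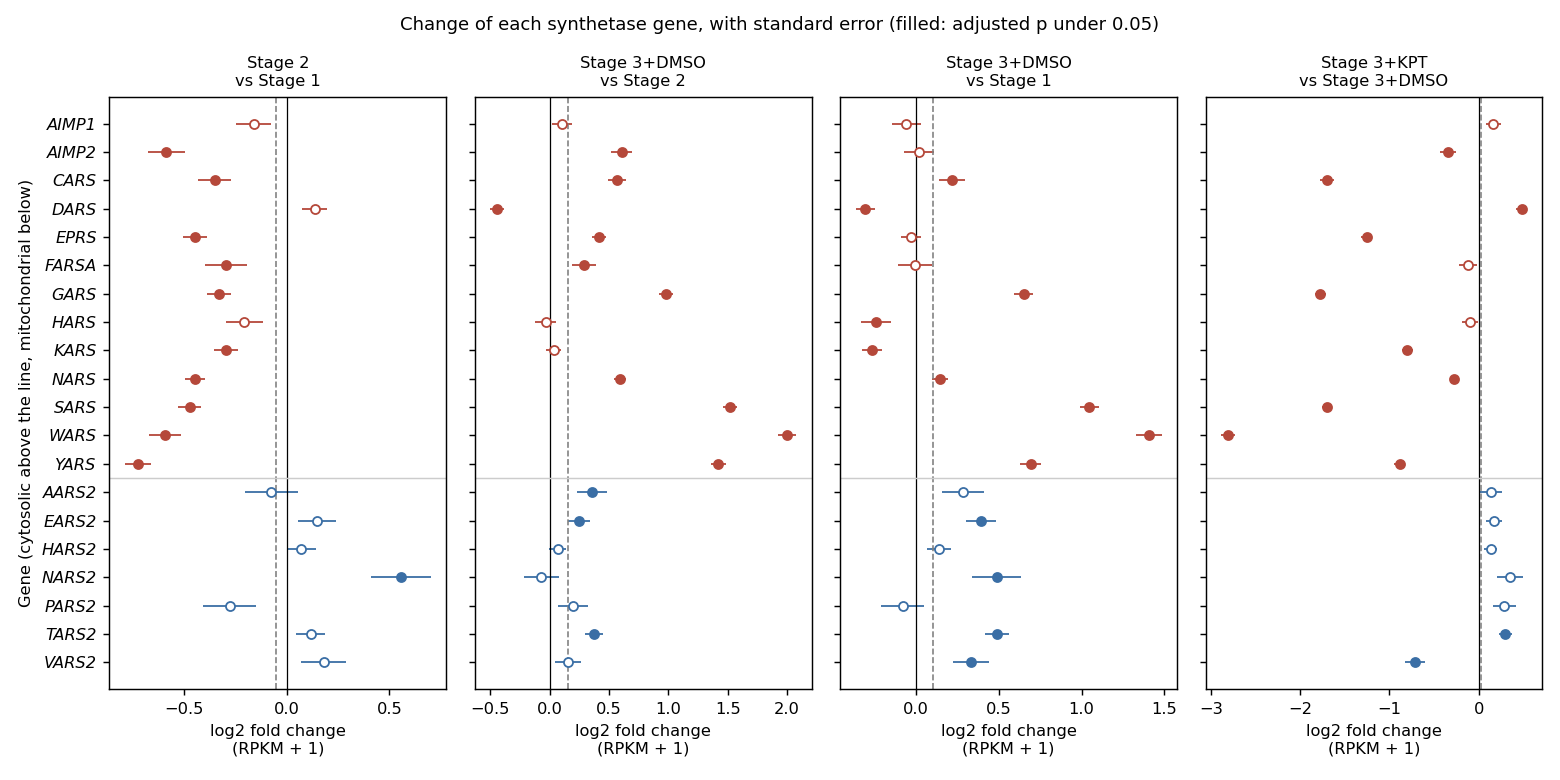
log2 fold change of each of the 20 rows on the log2(RPKM + 1) scale in the 4 comparisons, with standard errors, filled where the adjusted p is under 0.05, and the median of all genes as a dashed line. Most cytosolic rows lie left, right, on both sides and far left of 0 in turn, and the mitochondrial rows stay within 0.71 of 0.

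WARS, which charges tryptophan tRNA, moved the most. The gene lies at chromosome 7, 128677827 to 128702925, on the minus strand, with 12 exons (the build of these coordinates is not given). Its RPKM was 211, 219 and 211 in the Stage 1 libraries and 154, 138 and 132 in Stage 2. It was 622, 572 and 517 in Stage 3 with DMSO and 75.2, 83.1 and 82.5 with KPT. No group overlapped another, and the order was DMSO, Stage 1, Stage 2, KPT. WARS fell by 0.59 on the log2 scale to Stage 2 (SE 0.08, limma adjusted p = 8.32e-05). It then rose to 4.03 times the Stage 2 mean (log2 2.00, SE 0.08, limma adjusted p = 5.46e-09). With KPT it was 7.10 times lower than with DMSO (log2 -2.81, SE 0.08, limma adjusted p = 2.38e-11).

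WARS is also known as an interferon-induced gene, unlike most synthetases. The summed RPKM of 16 interferon-induced genes, a list added after the data had been seen, was 942 in Stage 3+DMSO replicate 1 and 258 and 266 in replicates 2 and 3. WARS was highest in that same library. Without it, the log2 change of WARS was 1.94 from Stage 2 and -2.75 with KPT, close to the values with all libraries. The interferon sum was 372 to 397 in the KPT libraries, where WARS was lowest, and 260 to 365 in Stages 1 and 2. Of the 14 genes of the list that were tested, 3 fell with KPT (IRF1, GBP1 and PSMB9) and 1 rose (TAP1), with a median of -0.83. Without Stage 3+DMSO replicate 1 the same 3 fell, 4 rose and the median was 0.13. With all libraries 29.5% of all genes fell with KPT and 30.5% rose. Neither count of the list with all libraries passed its share. IRF1, an interferon-responsive transcription factor, was at 33.5, 22.1 and 26.9 RPKM with DMSO and 11.9, 10.6 and 11.1 with KPT, groups apart, and fell by 1.21 (SE 0.12, limma adjusted p = 2.35e-06). The part of these shifts in the change of WARS was not tested.

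GARS, SARS and YARS, for glycine, serine and tyrosine, kept the same order of direction. GARS (chromosome 18, 46675442 to 46768425, minus strand) was at 428, 395 and 399 RPKM in Stage 1 and at 316, 327 and 327 in Stage 2. It reached 671, 653 and 596 with DMSO and stood at 179, 194 and 186 with KPT. The 4 groups of GARS were separate, with KPT below Stage 2. Its rise from Stage 2 was 0.98 (SE 0.06, limma adjusted p = 1.72e-07) and its fall with KPT 3.43 times (log2 -1.77, SE 0.06, limma adjusted p = 1.13e-10).

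SARS (chromosome 4, 121350389 to 121368612, minus strand) was at 189, 189 and 190 RPKM in Stage 1 and 147, 132 and 130 in Stage 2. With DMSO it was 395, 405 and 377, and with KPT 119, 118 and 122. Again all 4 groups were apart, with DMSO highest and KPT lowest. SARS rose to 2.88 times its Stage 2 mean (log2 1.52, SE 0.06, limma adjusted p = 4.57e-09) and was 3.28 times lower with KPT (log2 -1.70, SE 0.06, limma adjusted p = 1.12e-10).

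YARS (chromosome 6, 83114911 to 83145823, minus strand) had 93.2, 95.5 and 93.2 RPKM in Stage 1 and 58.9, 55.1 and 54.99 in Stage 2. It had 149, 162 and 147 with DMSO and 78.5, 88.6 and 79.1 with KPT. Unlike WARS, GARS and SARS, it was lowest in Stage 2, and the KPT libraries lay between Stage 2 and Stage 1. The gene table names this row YARS, and RefSeq (Sscrofa11.1) gives its Entrez number the same name. The separate table of identifiers instead puts YARS1 on the adjoining row, which the gene table names KIAA1522 and which stood at 7.74 to 14.7 RPKM. The fall of YARS to Stage 2 was the largest of any member (log2 -0.73, SE 0.06, limma adjusted p = 4.75e-06). The rise to Stage 3 was 1.42 (SE 0.06, limma adjusted p = 2.13e-08) and the fall with KPT 0.89 (SE 0.06, limma adjusted p = 1.01e-07).

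CARS, EPRS and NARS, for cysteine, for glutamate and proline together, and for asparagine, rose from Stage 2 to Stage 3 with DMSO by 0.57, 0.41 and 0.59. CARS (chromosome 2, 494866 to 524106, minus strand) was at 58.3, 58.9 and 53.8 RPKM in Stage 1, 50.4, 42.3 and 41.0 in Stage 2, 62.8, 67.9 and 68.0 with DMSO and 19.2, 20.1 and 19.8 with KPT. The KPT libraries were far below the rest, and Stage 1 lay only just under DMSO. CARS was 3.37 times lower with KPT (log2 -1.70, SE 0.08, limma adjusted p = 1.89e-09). Its rise over the whole course, 0.21 (SE 0.08, limma adjusted p = 0.0410), was not called after rescaling by the median ratio (0.10), nor without any 1 of Stage 1 replicates 1, 2 or 3, Stage 3+DMSO replicates 2 or 3 or Stage 3+KPT replicate 3 (0.17 to 0.24).

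EPRS (chromosome 10, 11663247 to 11730329, minus strand) carries 2 enzymes in 1 protein. It was at 128, 118 and 116 RPKM in Stage 1, 92.3, 85.2 and 86.5 in Stage 2, 116, 120 and 117 with DMSO and 50.7, 47.7 and 47.8 with KPT. Stage 1 and DMSO overlapped, Stage 2 lay below both, and KPT below all. EPRS fell by 0.45 to Stage 2 (SE 0.06, limma adjusted p = 9.15e-05), rose by 0.41 to Stage 3 (SE 0.06, limma adjusted p = 0.000126) and was 2.41 times lower with KPT (log2 -1.26, SE 0.06, limma adjusted p = 1.85e-09).

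NARS (chromosome 1, 117493535 to 117509485, plus strand) was at 260, 258 and 252 RPKM in Stage 1, 193, 185 and 186 in Stage 2, 276, 289 and 286 with DMSO and 240, 241 and 224 with KPT. Only Stage 2 stood well apart, and KPT lay just below Stage 1. NARS fell by 0.45 to Stage 2 (SE 0.05, limma adjusted p = 2.67e-05), rose by 0.59 to Stage 3 (SE 0.05, limma adjusted p = 2.13e-06) and fell by 0.27 with KPT (SE 0.05, limma adjusted p = 0.000427), the smallest called fall of the cytosolic rows there. Its whole-course rise of 0.15 was 0.03 after rescaling by the median ratio and not called, as also without any 1 of Stage 1 replicates 1, 2 or 3 or Stage 3+DMSO replicates 2 or 3 (0.13 to 0.15).

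The 7 genes of the usual ATF4 target lists that were taken by name all fell to Stage 2 (median log2 -0.45). All 7 rose to Stage 3 with DMSO (0.98) and fell with KPT (-1.70). Over the whole course 6 rose, and EPRS stood at -0.03. Of all genes 24.4% fell to Stage 2 and 33.0% rose to Stage 3 with DMSO. With KPT 29.5% of all genes fell, and over the whole course 30.5% rose. The medians of all genes were -0.05 to Stage 2, 0.15 to Stage 3 with DMSO and 0.02 with KPT. The 5 listed genes found by identifier were less uniform. Of these 5, 4 fell to Stage 2, 5 rose to Stage 3 with DMSO, 4 rose over the whole course and 4 fell with KPT. TARS1 was not called to Stage 2 (-0.06). LARS1 was not called with KPT (-0.06) or over the whole course (-0.10). In summed RPKM the 7 genes made up 1315 to 1368 in Stage 1 and 957 to 1012 in Stage 2. They made up 2109 to 2292 with DMSO and 761 to 793 with KPT. The 4 synthetases taken by name outside those lists summed to 540 to 554, 470 to 477, 436 to 467 and 339 to 355. That second sum was highest in Stage 1 and lowest with KPT, without the rise at Stage 3 with DMSO. KARS alone, with means of 374, 304, 311 and 178 RPKM in these groups, made up most of it. Of the 4, FARSA was called higher from Stage 2 to Stage 3 with DMSO (0.29) and DARS lower (-0.44). FARSB and RARS1, found by identifier and likewise outside the lists, rose in that step. Which genes belong to either list was set with earlier results of these data known.

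**Figure D3:**
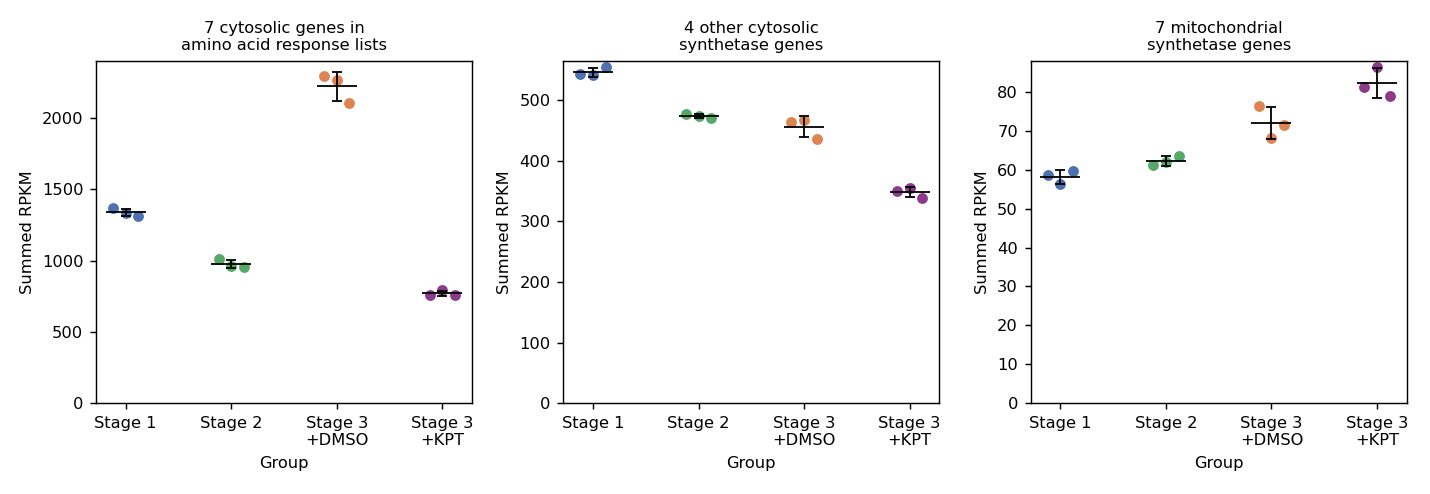
Summed RPKM in each library (points), with mean and SD (bars), for rows taken by name. The sets are 7 cytosolic synthetase genes of the usual ATF4 target lists, then DARS, FARSA, HARS and KARS, then the 7 mitochondrial rows. The first sum is highest in Stage 3+DMSO (2109 to 2292), the second in Stage 1 (540 to 554) and the third in Stage 3+KPT (79.0 to 86.4).

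DARS, for aspartate, went against the other cytosolic rows. It lies at chromosome 15, 18269639 to 18344270, on the plus strand. It was at 94.6, 91.6 and 91.2 RPKM in Stage 1, 95.6, 107 and 103 in Stage 2, 75.3, 75.6 and 72.7 with DMSO and 109, 98.2 and 106 with KPT. DMSO was below every other library, and Stage 2 and KPT overlapped. DARS fell by 0.44 from Stage 2 to Stage 3 (SE 0.06, limma adjusted p = 9.22e-05) and rose by 0.48 with KPT (SE 0.06, limma adjusted p = 1.70e-05), in both cases against the direction of most members. The difference of 0.14 between Stages 1 and 2 was not called (limma adjusted p = 0.0897). It was called after rescaling by the median ratio, at 0.19, and without Stage 2 replicate 1, at 0.18.

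KARS, for lysine, lies at chromosome 6, 11900776 to 11914646, on the plus strand, and shares 717 bases with an unnamed gene on the other strand. It was at 370, 366 and 385 RPKM in Stage 1, 306, 303 and 303 in Stage 2, 327, 318 and 289 with DMSO and 180, 188 and 167 with KPT. Stage 2 and DMSO overlapped, Stage 1 was above both and KPT well below. KARS fell by 0.30 to Stage 2 (SE 0.06, limma adjusted p = 0.00176). It did not follow the rise to Stage 3 (0.03, limma adjusted p = 0.690, and -0.13 after rescaling by the median ratio), and fell by 0.80 with KPT (SE 0.06, limma adjusted p = 1.5e-07).

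HARS, for histidine, lies at chromosome 2, 148331743 to 148345389, on the minus strand. It was at 57.7, 62.1 and 56.6 RPKM in Stage 1, 57.7, 47.7 and 47.5 in Stage 2, 45.2, 51.2 and 52.4 with DMSO and 43.6, 50.2 and 44.7 with KPT. Stage 1 lay above both Stage 3 groups, and the rest overlapped. The whole-course fall of 0.24 (SE 0.09, limma adjusted p = 0.0424) was the only call. It was lost without any 1 of Stage 1 replicates 1, 2 or 3, Stage 3+DMSO replicates 1 or 2 or Stage 3+KPT replicate 3, at -0.27 to -0.18. To Stage 2 its value of -0.21 was called only without Stage 2 replicate 1 (-0.30) among the left-out libraries.

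FARSA, the alpha subunit of the phenylalanine enzyme, is on chromosome 2 at 66268845 to 66280474 and ranged from 15.3 to 22.3 RPKM over the 12 libraries. It fell by 0.30 to Stage 2 (SE 0.10, limma adjusted p = 0.0362) and rose by 0.29 to Stage 3 (SE 0.10, limma adjusted p = 0.0376). That rise was not called after rescaling by the median ratio (0.13), nor without any 1 of Stage 1 replicates 2 or 3, Stage 2 replicates 2 or 3 or Stage 3+DMSO replicates 2 or 3 (0.22 to 0.29). With KPT its value of -0.12 was not called, and was -0.24 and called without Stage 3+DMSO replicate 1. FARSB, the beta subunit, is among the rows found by identifier. It stood at 46.0 ± 2.35, 38.6 ± 3.996, 57.8 ± 3.36 and 49.1 ± 4.66 RPKM (SD, n = 3) in Stage 1, Stage 2, DMSO and KPT, and changed in all 4 comparisons, with log2 values of -0.25 to Stage 2, 0.57 to Stage 3, 0.32 over the whole course and -0.23 with KPT.

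AIMP1, a scaffold of the complex that is also secreted as a cytokine precursor, lies at chromosome 8, 123837966 to 123895151, on the minus strand. It was at 52.0, 50.2 and 52.9 RPKM in Stage 1, 42.1, 46.7 and 49.9 in Stage 2, 53.8, 50.1 and 45.2 with DMSO and 60.4, 55.8 and 51.0 with KPT. Neighbouring groups overlapped apart from Stage 1 over Stage 2. AIMP1 was not called in any comparison, with log2 values from -0.16 to 0.16 (SE 0.09). Its sign from Stage 2 to Stage 3 turned from 0.10 to -0.06 after rescaling by the median ratio.

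AIMP2, a second scaffold, lies at chromosome 3, 5166112 to 5179043, on the minus strand. It was at 14.8, 14.5 and 13.2 RPKM in Stage 1, 9.81, 9.34 and 8.15 in Stage 2, 13.6, 14.4 and 15.0 with DMSO and 10.4, 11.3 and 11.6 with KPT. Stage 1 and DMSO overlapped and stood above Stage 2 and KPT. AIMP2 fell by 0.59 to Stage 2 (SE 0.09, limma adjusted p = 0.000274), rose by 0.61 to Stage 3 (SE 0.09, limma adjusted p = 0.000182) and fell by 0.34 with KPT (SE 0.09, limma adjusted p = 0.00515).

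The gene model of AIMP2 overlaps another gene. Its last exon is 5132 bases long, and 3867 of these lie within EIF2AK1, a kinase gene on the opposite strand. Without stated strand use, reads from the 2 genes there cannot be told apart. Over exons 1 to 3 alone, AIMP2 was at 38.4 ± 3.84, 24.9 ± 3.35, 47.4 ± 1.36 and 22.03 ± 3.38 RPKM (SD, n = 3) in Stage 1, Stage 2, DMSO and KPT. The ratio of means of KPT to DMSO was -1.10 on the log2 scale over these 3 exons and -0.03 over the last exon, against -0.34 for the gene. EIF2AK1 itself was at 31.8 to 35.3 RPKM with DMSO and 36.3 to 39.9 with KPT.

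EEF1E1, the third scaffold, was found only by its identifier. It was at 20.1, 19.9 and 18.7 RPKM in Stage 1, 11.6, 13.2 and 16.1 in Stage 2, 16.8, 20.3 and 16.1 with DMSO and 22.6, 25.8 and 27.6 with KPT. KPT lay above every other library, and Stage 2 just touched DMSO. EEF1E1 fell by 0.50 to Stage 2 (SE 0.12, limma adjusted p = 0.00546), rose by 0.36 to Stage 3 (SE 0.12, limma adjusted p = 0.0280) and rose by 0.49 with KPT (SE 0.12, limma adjusted p = 0.00350). The 3 scaffold genes thus differed with KPT, where AIMP2 fell, EEF1E1 rose and AIMP1 had a value of 0.16 that was not called. Among the 5 rows of the complex that the name pattern found (DARS, EPRS, KARS, AIMP1 and AIMP2), 3 fell and 1 rose with KPT. DARS rose as EPRS and KARS fell. Of all genes 29.5% fell and 30.5% rose with KPT.

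By catalytic fold, the 6 class I rows (CARS, EPRS, WARS, YARS, EARS2 and VARS2, with EPRS counted by its glutamate part) had 4 falls to Stage 2, 5 rises to Stage 3 with DMSO and 5 falls with KPT. The 12 class II rows had 5 falls and 1 rise, 6 rises and 1 fall, and 4 falls and 2 rises in the same comparisons. Over all genes 24.4% fell to Stage 2, 33.0% rose to Stage 3 with DMSO and 29.5% fell with KPT, a share close to that of the class II rows with KPT. With KPT the medians of the 2 classes were -1.07 and 0.02. Class II holds 5 of the 7 mitochondrial rows, so the classes also differ in compartment. GARS and KARS, which serve both compartments, fell with KPT by 1.77 and 0.80, as did most cytosolic rows. Of the mitochondrial rows only VARS2 fell (-0.71), and of the cytosolic rows taken by name only DARS rose (0.48).

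Of the 8 cytosolic genes found by identifier, 7 fell to Stage 2, all 8 rose to Stage 3 with DMSO, 5 rose over the whole course, and 6 fell and 1 rose with KPT, against shares of all genes of 24.4%, 33.0%, 30.5%, 29.5% and 30.5% in turn. AARS1, for alanine, was at 218 ± 5.09, 153 ± 3.15, 531 ± 16.0 and 186 ± 2.67 RPKM (SD, n = 3) in Stage 1, Stage 2, DMSO and KPT. Its rise to Stage 3 (3.47 times, log2 1.79, SE 0.05, limma adjusted p = 4.44e-10) stands beside a log2 value of 2.00 for WARS, and with KPT it was 2.85 times lower. IARS1 and MARS1, for isoleucine and methionine, rose by 1.24 and 0.86 and fell with KPT by 1.26 and 0.90, but the gene model of MARS1 overlaps other genes. TARS1, for threonine, rose by 1.03 and fell by 0.80. LARS1, for leucine, rose by 0.44 and had a KPT value of -0.06 that was not called. RARS1, for arginine, rose by 0.22 and fell by 0.25. The name pattern left out these rows only because of how the table labels them. How the calls of rows found by identifier fared in the alternative settings is not given here.

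The mitochondrial rows were lower by about an order of magnitude and followed a different course. Their summed RPKM was 56.2 to 59.7 in Stage 1, 61.3 to 63.6 in Stage 2, 68.0 to 76.3 with DMSO and 79.0 to 86.4 with KPT. The cytosolic sum was 1935 to 1977, 1484 to 1541, 2605 to 2824 and 1163 to 1215. The cytosolic sum was thus 32.4 to 34.5, 23.3 to 25.2, 36.4 to 41.1 and 14.1 to 14.7 times the mitochondrial one. This ratio was lowest with KPT in all 3 libraries, where the cytosolic sum was lowest and the mitochondrial sum highest. By group mean, 6 of the 7 mitochondrial rows were highest with KPT, against 2 of the 13 cytosolic rows. Of these 6 mitochondrial rows only TARS2 was called higher with KPT than with DMSO, where 30.5% of all genes rose. The share of all genes that were highest with KPT is not given here.

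**Figure D4:**
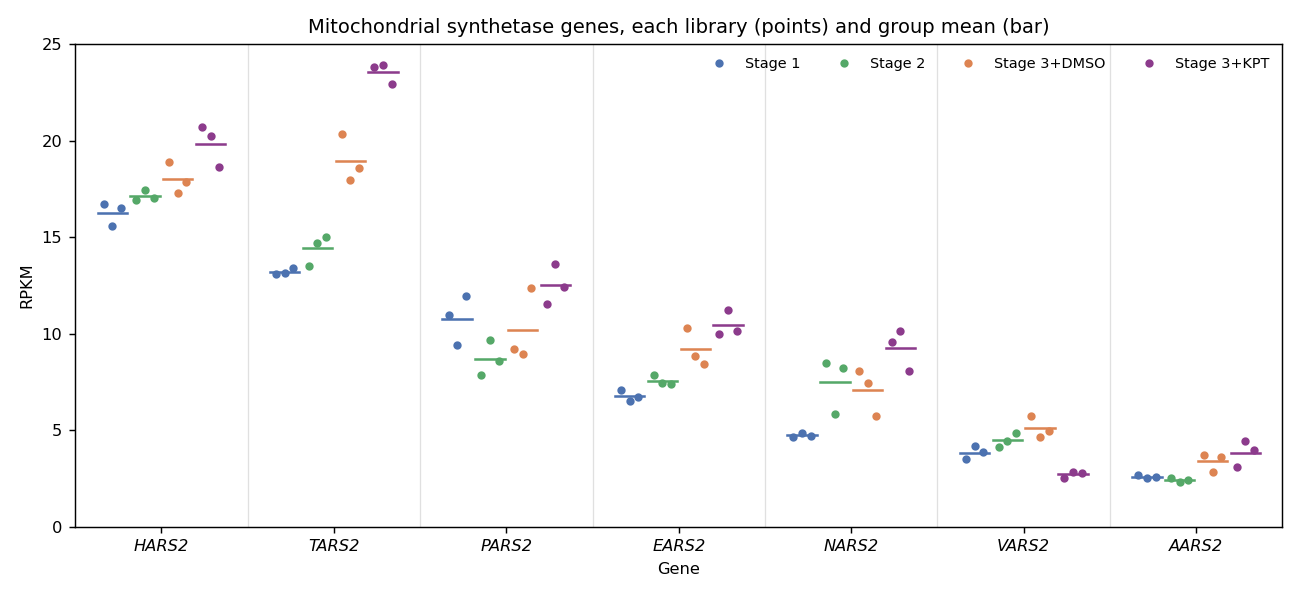
RPKM of the 7 mitochondrial rows in each library, with 3 points and a bar at the mean for each of the 4 groups. TARS2 is highest in the KPT libraries (23.0 to 23.9) and VARS2 lowest in them (2.55 to 2.85).

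TARS2, for mitochondrial threonine, lies at chromosome 4, 107910016 to 107923063, on the minus strand. It was at 13.1, 13.1 and 13.4 RPKM in Stage 1, 13.5, 14.7 and 15.0 in Stage 2, 20.3, 18.0 and 18.6 with DMSO and 23.8, 23.9 and 23.0 with KPT. The 4 groups followed each other upwards without overlap. TARS2 rose by 0.37 from Stage 2 (SE 0.07, limma adjusted p = 0.00129), by 0.49 over the whole course (SE 0.07, limma adjusted p = 0.000147) and by 0.30 with KPT (SE 0.07, limma adjusted p = 0.00326). These 3 calls held in all 24 alternatives, as did the whole-course rise of EARS2, and none of the other mitochondrial rises did. Its cytosolic counterpart TARS1 fell with KPT, and the ratio of TARS1 to TARS2 was 7.76 to 8.17 with DMSO and 3.51 to 3.91 with KPT.

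VARS2, for mitochondrial valine, was the mitochondrial row that fell with KPT. It lies at chromosome 7, 27126620 to 27138751, on the plus strand. It was at 3.49, 4.16 and 3.89 RPKM in Stage 1, 4.15, 4.44 and 4.88 in Stage 2, 5.74, 4.64 and 4.94 with DMSO and 2.55, 2.85 and 2.77 with KPT. KPT was below every other library. VARS2 fell by 0.71 with KPT (SE 0.11, limma adjusted p = 0.000121), and its whole-course rise of 0.33 (SE 0.11, limma adjusted p = 0.0259) was 0.24 after rescaling by the median ratio and not called. That rise was also lost without any 1 of Stage 1 replicates 1 or 3 or Stage 3+DMSO replicate 1 (0.26 to 0.34).

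NARS2, for mitochondrial asparagine, was at 4.64, 4.86 and 4.70 RPKM in Stage 1, 8.47, 5.86 and 8.23 in Stage 2, 8.09, 7.45 and 5.72 with DMSO and 9.60, 10.1 and 8.09 with KPT. Stage 1 was below all other libraries, which overlapped. NARS2 rose by 0.56 to Stage 2 (SE 0.15, limma adjusted p = 0.00890), the one called rise among members in that step, and by 0.49 over the whole course (SE 0.15, limma adjusted p = 0.0156). The whole-course call was lost without Stage 3+DMSO replicate 1 (0.40) or 2 (0.45). With KPT its value of 0.35 was not called (limma adjusted p = 0.0532) and was called without any 1 of Stage 2 replicates 1 or 2, Stage 3+DMSO replicate 1 or Stage 3+KPT replicate 3 (0.35 to 0.44).

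EARS2, for mitochondrial glutamate, was at 7.06, 6.50 and 6.71 RPKM in Stage 1, 7.88, 7.43 and 7.42 in Stage 2, 10.3, 8.84 and 8.46 with DMSO and 9.98, 11.2 and 10.1 with KPT. The stages followed upwards, and DMSO and KPT overlapped. It rose by 0.39 over the whole course (SE 0.09, limma adjusted p = 0.00404). With KPT its value of 0.17 was called only without Stage 3+DMSO replicate 1 (0.24) among the left-out libraries. Its rise of 0.25 from Stage 2 (limma adjusted p = 0.0475) was lost in 16 of 24 alternatives, among them the rescaling by the median ratio (0.10) and 10 of the 12 left-out libraries, all but Stage 3+DMSO replicate 3 and Stage 3+KPT replicate 2 (0.17 to 0.27).

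AARS2, for mitochondrial alanine, was at 2.70, 2.52 and 2.56 RPKM in Stage 1, 2.51, 2.30 and 2.41 in Stage 2, 3.71, 2.85 and 3.59 with DMSO and 3.11, 4.43 and 3.96 with KPT. The DMSO libraries lay above Stage 2 and overlapped KPT. The rise of AARS2 from Stage 2, 0.36 (SE 0.13, limma adjusted p = 0.0385), was lost in 13 of 23 alternatives. These include, at 0.30 to 0.38, the fits without any 1 of Stage 1 replicates 2 or 3, Stage 2 replicates 1, 2 or 3, Stage 3+DMSO replicates 1 or 3 or Stage 3+KPT replicate 3. The whole-course value of AARS2, 0.28, was called without Stage 3+DMSO replicate 2 (0.37). HARS2 (15.6 to 20.7 RPKM over the 12 libraries) and PARS2 (7.86 to 13.6 RPKM), for histidine and proline, were called in no comparison. The KPT value of PARS2, 0.28, was called without Stage 3+DMSO replicate 3 (0.42).

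Of the 6 mitochondrial rows found by identifier, 2 fell to Stage 2 (SARS2 and WARS2), 3 rose to Stage 3 with DMSO (IARS2 and both rows named RARS2) and 1 rose with KPT (a RARS2 row). With 24.4%, 33.0% and 30.5% of all genes called in these directions, such counts of 6 stand near the background. The 2 rows named RARS2 lie on opposite strands of chromosome 1, 13537 bases apart, so that name counts as 2 of the 6. Where the 2 compartments have their own gene for an amino acid, the changes could be set side by side. WARS2 was at 5.33 ± 0.403 RPKM with DMSO and 6.06 ± 0.616 with KPT (SD, n = 3), with a log2 value of 0.16 that was not called, while WARS fell by 2.81. SARS2 had an uncalled 0.29 where SARS fell by 1.70. AARS2 had an uncalled 0.14 where AARS1 fell by 1.504. The ratio of WARS to WARS2 was 91.1 to 127 with DMSO and 12.3 to 14.6 with KPT.

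HARS and HARS2 stand head to head on chromosome 2 and overlap by 568 bases, so reads in the overlap cannot be assigned without strand. The ratio of HARS to HARS2 was 3.43 to 3.98 in Stage 1 and 2.11 to 2.48 with KPT. EPRS and IARS2 are neighbours on chromosome 10, 37285 bases apart and pointing away from each other. With KPT, EPRS fell by 1.26 and IARS2 had an uncalled value of 0.16.

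The exon table shows whether a gene's change ran through its whole length. For WARS all 12 exons went the same way as the gene in each comparison, with log2 ratios of means from -3.02 to -2.71 with KPT and from 1.49 to 2.26 from Stage 2 to Stage 3. The 17 exons of GARS lay between -1.90 and -1.64 with KPT, the 11 of SARS between -1.80 and -1.66 and the 13 of YARS between -1.10 and -0.80. Over the 10 cytosolic rows called with KPT, 156 of 156 exons with at least 20 reads in each group had the sign of their gene. In 151 of these the groups were also apart. For the 2 mitochondrial rows called there, TARS2 and VARS2, 29 of 32 exons had the sign and 14 were also apart. Exons make up the value of their own gene, so a shared sign is no separate support.

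DARS was uneven along its length. Exon 1 was at 30.9, 38.6 and 29.7 RPKM with DMSO and 33.5, 39.3 and 29.5 with KPT. Exon 9 was at 41.5, 37.5 and 33.9 with DMSO and 86.2, 62.8 and 126 with KPT. Exon 11 was at 149, 136 and 131 with DMSO and 230, 212 and 214 with KPT. The groups overlapped at exon 1 and were apart at exons 9 and 11. The log2 ratio of means with KPT went from 0.04 at exon 1 to 1.29 at exon 9, 1.07 at exon 10 and 0.49 at the last exon, against 0.48 for the gene. These exons were picked after their values had been seen, and the difference between exons was not tested.

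**Figure D5:**
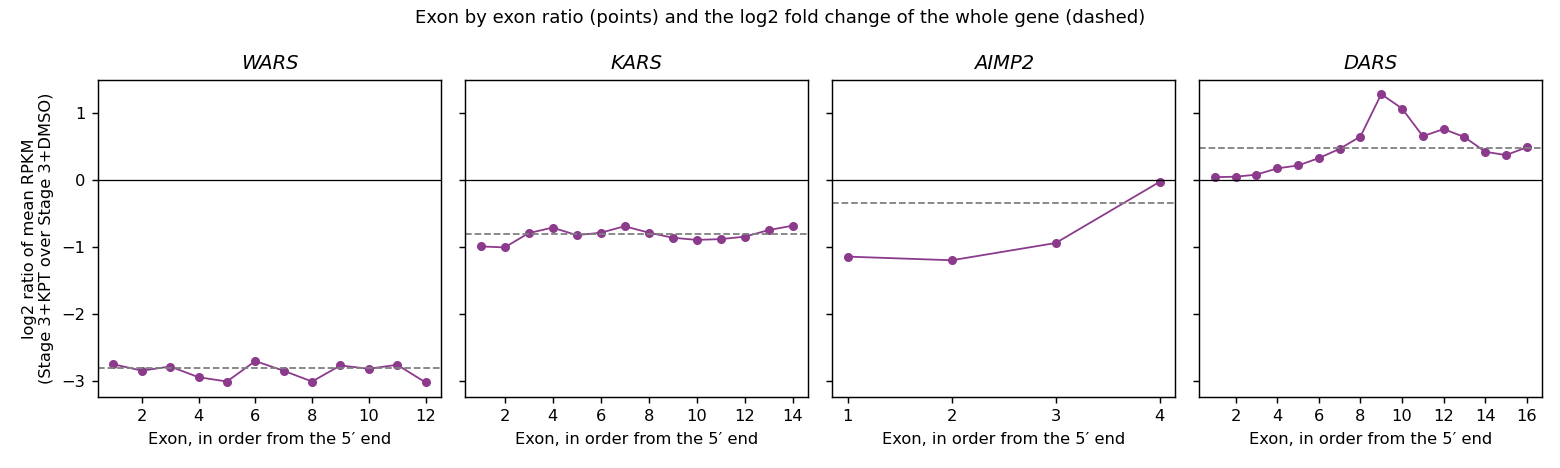
log2 ratio of mean RPKM (KPT over DMSO at Stage 3) for each exon, in order from the 5′ end, of WARS, KARS, AIMP2 and DARS, with the gene's log2 fold change dashed. WARS is even over 12 exons (-3.02 to -2.71), AIMP2 differs between exons 1 to 3 and exon 4 (-0.03), and DARS peaks at exon 9 (1.29).

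Genes that work with the synthetases were read from lists chosen with earlier results known. Of 25 tested genes of the amino acid response linked to ATF4, 21 fell to Stage 2 and 0 rose, 21 rose and 2 fell to Stage 3 with DMSO, 15 rose and 4 fell over the whole course, and 19 fell and 4 rose with KPT. Over all genes, 24.4% fell and 16.3% rose, 33.0% rose and 11.1% fell, 30.5% rose and 17.3% fell, and 29.5% fell and 30.5% rose. The list's medians were -0.73, 1.36, 0.50 and -1.10. PSAT1, an enzyme of serine synthesis, was at 183.6 ± 3.99, 94.6 ± 7.52, 600 ± 84.5 and 18.7 ± 1.24 RPKM (SD, n = 3) in Stage 1, Stage 2, DMSO and KPT, with log2 changes of -0.95, 2.65 and -4.92 in turn. ASNS, the asparagine synthetase, was at 122 ± 4.67, 69.6 ± 3.66, 256 ± 23.0 and 34.0 ± 1.53, with changes of -0.80, 1.86 and -2.87. TRIB3, a pseudokinase, changed by -0.79, 1.74 and -2.41, and CHAC1, which degrades glutathione, by -1.66, 1.38 and -2.05. Both were uneven with DMSO, where replicate 1 was highest. TRIB3 was at 81.9, 53.7 and 50.0 RPKM there, and CHAC1 at 83.9, 39.7 and 39.3. The members of this list that rose with KPT were SLC38A2 (1.60), ATF3 (1.43), PPP1R15A (1.38) and CEBPB (1.27).

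The mRNA of ATF4 itself moved less. It was at 804, 822 and 809 RPKM in Stage 1, 572, 525 and 513 in Stage 2, 850, 686 and 736 with DMSO and 692, 713 and 666 with KPT. Stage 2 was lowest, and DMSO overlapped both Stage 1 and KPT. ATF4 fell by 0.60 to Stage 2 (SE 0.07, limma adjusted p = 6.15e-05) and rose by 0.49 to Stage 3 (SE 0.07, limma adjusted p = 0.000201), and its KPT value of -0.13 (SE 0.07, limma adjusted p = 0.153) was not called. ATF4 is regulated mainly in translation, which these data do not measure. DDIT3, another factor of the response, was not analysed here.

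Upstream of charging, 13 of 32 tested genes of tRNA maturation and export fell to Stage 2 and 1 rose, 17 rose and 2 fell to Stage 3 with DMSO, and 7 fell and 6 rose with KPT. Their KPT median was 0.06. Of all genes 24.4% fell and 16.3% rose to Stage 2, and 33.0% rose and 11.1% fell to Stage 3 with DMSO. XPOT, the export receptor for tRNA, stood at 112 to 129 RPKM with DMSO and 48.7 to 58.9 with KPT, and fell by 1.11 (SE 0.10, limma adjusted p = 1.31e-06). RPP40, a subunit of ribonuclease P, fell by 1.15 to Stage 2 and rose by 1.23 to Stage 3. Of 20 genes of RNA polymerase III, which transcribes tRNA genes, 8 rose and 5 fell with KPT, with a median of 0.02. Of 12 genes for tRNA editing, formylation, amidation and selenocysteine, 2 rose and 2 fell with KPT, among them DTD1, a D-aminoacyl-tRNA deacylase, which fell by 0.95, and SEPHS2, of selenocysteine synthesis, which rose by 0.58. With KPT, 29.5% of all genes fell and 30.5% rose, and in none of these 3 lists did the share of falls pass that of all genes.

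Downstream of charging, all 7 tested cytosolic elongation genes fell with KPT (median -0.77), where 29.5% of all genes fell. EEF1A1, which carries charged tRNA to the ribosome, was at 8997, 8589 and 7167 RPKM with DMSO and 5448, 5685 and 5220 with KPT, groups apart, and fell by 0.59 (SE 0.09, limma adjusted p = 6.20e-05). To Stage 3 with DMSO, 1 of these 7 rose and 1 fell, where 33.0% of all genes rose and 11.1% fell. EEF1A1 had a value of 0.00 there. Of the 4 mitochondrial elongation genes, 3 rose and 1 fell with KPT, where 30.5% of all genes rose and 29.5% fell. TUFM, the mitochondrial counterpart of EEF1A1, was at 70.2, 78.4 and 75.2 RPKM with DMSO and 84.8, 103 and 94.6 with KPT, and rose by 0.33 (SE 0.08, limma adjusted p = 0.00285).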

How the data were processed

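Poly(A) RNA from 12 cultures was prepared with a stranded kit from 500 ng of total RNA and aligned with TopHat2 2.1.0, per the labels' protocols and the submitters' processing notes. The sources used here name no counter, genome build, annotation or use of strand. The authors deposited RPKM values for 22861 genes and 189618 exons. Multiplying the deposited RPKM by exon length and a whole-number library total gave whole reads for 100% of values, within 0.0001 of a read, and these reads gave the depth per library and a limma-voom fit.

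Genes with an RPKM of at least 1 in at least 3 libraries (13046) were tested on log2(RPKM + 1) with limma 3.58.1, run under R 4.3.3. A single fit took in the 12 libraries, with a coefficient per group and an expression trend, and p-values were adjusted by Benjamini-Hochberg over all genes and called under 0.05. Fold changes are on that scale, which understates changes of low genes, and SE is their standard error. Ratios in times are of mean RPKM. The fit was tested on simulated data.

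The members, the gene lists and the tests were chosen with earlier results of these data known. The name pattern matched 21 rows, of which 1 is not reported here. It stayed in the fit over all genes and is left out of every count, median and sum over the members. Values in each library are given for the members with the largest called changes, for members that went against their group and for the scaffold genes, and companion genes were a preset few and the largest changes of their lists. Tried as alternatives were quantile normalization, median-ratio rescaling, other pseudocounts (0.1 and 0.5), other filters (none, and an RPKM of at least 5), a fit without the trend, library quality weights, a replicate block, limma-voom, the 2 groups alone, leaving out each library and leaving out replicate 1 of every group. Exon ratios used exons with at least 20 recovered reads in each group. Protein and promoter sequences were not used here.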

Additional observations from a re-analysis of the deposited data

How the results depend on the processing

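Of the 49 calls made for the 20 rows over the 4 comparisons, 39 were called in the same direction in every alternative (24, or 23 for AARS2 and VARS2, which were not tested at an RPKM of at least 5). The 10 others were FARSA (to Stage 2 and to Stage 3), NARS2 (to Stage 2 and whole course), CARS, HARS, NARS and VARS2 (whole course) and AARS2 and EARS2 (Stage 2 to Stage 3). The counts of cytosolic rows called stayed within 1.5 times of the main count, with 1 exception. From Stage 1 to Stage 2, 1 cytosolic row (DARS) rose instead of 0 after rescaling by the median ratio, with library quality weights and without the replicates numbered 1, and 0 to 1 rose when a library was left out.

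Counts of mitochondrial rows depended more on the setting. To Stage 2, the 1 rise became 2 with quantile normalization, 2 with quality weights and 0 without the replicates numbered 1. To Stage 3 with DMSO, the 3 rises became 1 after rescaling by the median ratio, 1 with quantile normalization, 1 with the 2 groups alone and 1 without the replicates numbered 1, and 1 to 3 when a library was left out. Over the whole course, 4 rises became 2 with quantile normalization and 2 without the replicates numbered 1, and 2 to 4 with a library left out. With KPT, 1 rise became 2 at an RPKM of at least 5, 2 with quantile normalization, 2 with limma-voom and 2 without the replicates numbered 1, and 1 to 3 with a library left out, and 1 fall became 0 at an RPKM of at least 5, where VARS2 was not tested. Beyond that filter the cause was not tested.

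Changes of sign were limited to values that were not called. From Stage 2 to Stage 3, AIMP1 was -0.062 after median-ratio rescaling, -0.045 with quantile normalization and -0.020 without the replicates numbered 1. HARS was 0.075 with quality weights, 0.12 without the replicates numbered 1 and -0.081 to 0.056 with a library left out. HARS2 was -0.091 after median-ratio rescaling and -0.12 with quantile normalization. KARS was -0.13 after median-ratio rescaling, -0.00029 without the replicates numbered 1 and -0.0041 to 0.084 with a library left out. NARS2 was 0.11 with quality weights and -0.22 to 0.056 with a library left out. PARS2 was -0.018 with quantile normalization. VARS2 was -0.070 with quantile normalization. Over the whole course, AIMP1 was -0.12 to 0.0063 with a library left out. AIMP2 was -0.091 after median-ratio rescaling, -0.10 with quantile normalization and -0.030 to 0.053 with a library left out. EPRS was 0.021 without the replicates numbered 1 and -0.062 to 0.013 with a library left out. FARSA was 0.061 with quality weights, 0.094 without the replicates numbered 1 and -0.072 to 0.11 with a library left out.

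Whether libraries with the same replicate number belong together is not given. Their deviations from the group means correlated between -0.07 and 0.07, and values this small cannot decide it. With a replicate block, the 3 mitochondrial rises from Stage 2 to Stage 3 became 1, and no other count of member calls moved by over 1.5 times. In Stage 3+DMSO against Stage 1 and in KPT against DMSO each library correlated best with its own number, a hint from the data and not from the design. Depth limits the lowest rows, since NARS2 rested on 106 to 390 reads and AARS2 on 139 to 384.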
